A study of Homo sapiens with 4 samples.

Results

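The genes described here encode the working parts of the lysosome: 23 hydrolases, cofactors and membrane proteins, and 8 subunits of the proton pump that acidifies it. The 31 genes are listed by name and function; the rule uses no measured value, but the list was drawn up with earlier results of these data known. Of these, 27 had a probe set annotated to no other gene, out of 17144 genes with such a probe set in the whole series. The other 4 (CTSD, GLB1, NPC2 and CLN3) were covered only by probe sets that also carry another gene's symbol, and they are kept apart from all counts. The cells were WM35, an established line from a human melanoma in its radial growth phase, an early stage in which a tumour spreads within the skin. They were kept with C646 at 20 µM or with the vehicle DMSO at 0.2%, for 6 h or 24 h. C646 blocks the acetyltransferase activity of p300, and the study asked what this does to gene expression. Each of the 4 conditions was measured on 1 Affymetrix Human Exon 1.0 ST array, with no second culture of any condition, so differences between C646 and DMSO at one time are array against array and have no replicate check.

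Lysosomes break down proteins, glycans and lipids with hydrolases that need an acidic lumen. The acid comes from the vacuolar ATPase, whose V1 sector burns ATP in the cytosol and whose V0 sector passes protons through the membrane. Many lysosomal genes are known targets of the transcription factors TFEB and TFE3, relatives of the melanocyte factor MITF, which bind E-box sequences near the start site. β-galactosidase, the product of GLB1, is the enzyme behind the staining used to mark senescent cells.

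The promoters of several of these genes carry the E-box, and the stretches around it are shown because the genes below can be compared by them. RefSeq promoter windows on GRCh38.p14, from 250 bases before to 50 after an annotated start, were found for 20 of the 31 genes. Of 35116 windows compared with a gene table, 24900 lay on the gene's start given there. Among the genes found below to carry CACGTG or TCATGTG, the windows of SCARB2 and CLN3 did not. On either strand, CACGTG occurred in 8 of the 20, against 8.88% of 15843 windows of protein-coding genes. The longer palindrome with GT before CACGTG and AC after it, close to the consensus known as the CLEAR element, occurred in 2 of the 20, GAA and MCOLN1, against 0.568% of all windows. Each such palindrome is also counted as CACGTG. The related sequence TCATGTG, the core of the M-box bound by MITF, occurred in 3 of the 20, CTSA, SCARB2 and TPP1, against 2.27%. Capitals below mark CACGTG and TCATGTG, or its reverse complement CACATGA, and each stretch ends before the gene's start.
TPP1, chr11:6619423-6619473, minus strand: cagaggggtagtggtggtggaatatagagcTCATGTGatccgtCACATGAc
CTSA, chr20:45891263-45891334, plus strand: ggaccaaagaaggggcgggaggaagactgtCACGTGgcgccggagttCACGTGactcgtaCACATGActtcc
NEU1, chr6:31862912-31862977, minus strand: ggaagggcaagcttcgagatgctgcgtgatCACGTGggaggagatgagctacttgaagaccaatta
GAA, chr17:80101475-80101580, plus strand: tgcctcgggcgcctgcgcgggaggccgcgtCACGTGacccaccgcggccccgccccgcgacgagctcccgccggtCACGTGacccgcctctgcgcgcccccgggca
MCOLN1, chr19:7522553-7522623, plus strand: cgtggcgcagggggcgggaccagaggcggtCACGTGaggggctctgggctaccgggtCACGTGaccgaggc
LAMP1, chr13:113297017-113297238, plus strand: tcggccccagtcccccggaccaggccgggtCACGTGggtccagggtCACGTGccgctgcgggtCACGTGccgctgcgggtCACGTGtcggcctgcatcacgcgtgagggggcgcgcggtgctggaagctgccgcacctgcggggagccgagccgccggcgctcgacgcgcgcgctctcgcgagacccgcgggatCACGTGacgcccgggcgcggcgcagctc

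The deposited values are log2 expression values for 27631 probe sets, and the 4 array medians lay between 4.39 and 4.41. Probe sets with a mean of at least 3.96, the 40th percentile, were kept, which left 16579, and all 27 genes with a probe set of their own passed. Pearson correlations over all probe sets were 0.975 to 0.979 between the 24 h C646 array and the rest, and 0.991 to 0.996 among the remaining 3. The part of this array's distance in the 24 h results was not tested. All 6 melanocyte markers with a probe set of their own passed the filter, and their median difference between C646 and DMSO was 0.45 at 6 h and 0.57 at 24 h. The markers ranged from -0.27 to 0.79 at 6 h and from 0.078 to 1.49 at 24 h. All 6 fell in vehicle cells between the times, with a median of -0.21. Of the macrophage markers, 7 had a probe set of their own and 1 passed the filter, TYROBP, at 0.00088 and 0.052. In a bulk sample a change in the mix of cells and a change in RNA per cell cannot be told apart.

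After 24 h of C646 most of the lysosomal genes read slightly above DMSO, and few of them by much. Of the 27 genes, 22 (81.5%) lay above 0, where 55.0% of all 16579 probe sets did, and the median difference was 0.12 on the log2 scale against 0.030 for all probe sets. Among the 5532 probe sets with a mean level in the range of the middle 50% of these genes, the median was 0.043. TPP1 was the 1 gene at least 1.5-fold higher (3.70% of the 27, against 4.96% of all probe sets), and none was 1.5-fold lower, against 5.34% of all. No gene differed by 2-fold, which 1.14% of all probe sets did upward and 2.50% downward. At a size of 1.25-fold, chosen after the values were seen, 7 were higher (25.9% against 15.4%) and none was lower (12.1% of all). Of the 5532 probe sets in the level range of these genes, 3114 lay above 0, 991 were 1.25-fold higher and 785 were 1.25-fold lower. Of 8 reference genes 6 also lay above 0, with a median of 0.11 and GAPDH at 0.32, and the part of such a general shift in the lysosomal values was not tested.

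After 6 h the genes lay closer to DMSO. Of the 27 genes, 18 (66.7%) were above 0, against 49.4% of all probe sets, and the median was 0.050 against -0.0024. Among the 5532 probe sets in the level range of these genes, the median was -0.0044. None reached 1.5-fold in either direction, which 1.00% of all probe sets did upward and 1.26% downward. The 2-fold size was passed by 0.127% upward and 0.115% downward, and by none of these genes. NEU1, at 1.45-fold, came closest and was the 1 gene past 1.25-fold upward (5.19% of all probe sets), while none was past it downward (5.68%). In vehicle cells between 6 h and 24 h the same genes had a median difference of 0.00073 with 14 of 27 above 0 (45.2% of all probe sets), and none differed by 1.25-fold, which 2.40% of all probe sets did upward and 3.45% downward. The effect was higher at 24 h than at 6 h for 18 of the 27 genes (66.7%, against 55.4% of all probe sets). Both effects had the same sign for 17 (63.0%, against 64.5%).

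**Figure D1:**
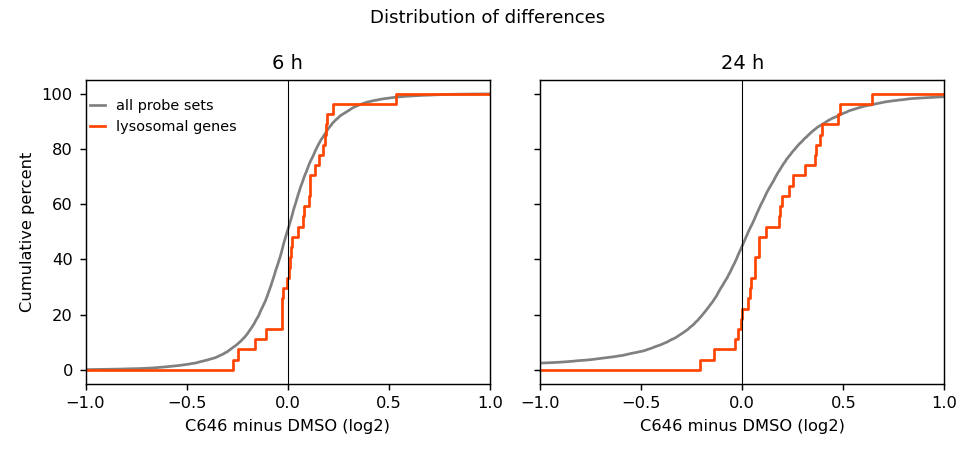
Cumulative distribution of C646 minus DMSO differences (log2, x axis) at 6 h and 24 h for the 27 lysosomal genes with a probe set of their own and all 16579 probe sets kept; the y axis is the percent of genes or probe sets at or below a value, and the x axis is cut at 1 log2 unit on either side. At 24 h the curve of the lysosomal genes lies to the right of that of all probe sets over its lower and middle part, with medians of 0.12 and 0.030 at 24 h, and it has no long tail on either side.

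To set C646 against some spread, the 24 h C646 array was compared with both DMSO arrays in limma, which takes its error from vehicle arrays that differ in time and assumes that the lone C646 array varies as they do. TPP1 and MAN2B1 rose at a limma adjusted p under 0.05 and no gene fell. These 2 of 27 (7.41%) stand beside 6.68% of all probe sets that rose and 6.90% that fell. At an unadjusted limma p under 0.05, 8 of the 27 were higher, where 17.8% of all probe sets were, and none lower, where 14.3% were. The 24 h C646 array read above both DMSO arrays for 21 of the 27 genes (77.8%, against 46.4% of all probe sets) and below both for 4 (37.8% of all).

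The same fit for the 6 h C646 array called 0 of the 27 genes and 0 of all probe sets, with limma adjusted p-values of 0.20 and above for these genes. At an unadjusted limma p under 0.05, 2 of the 27 were higher and 1 lower, where 8.48% and 7.32% of all probe sets were. This fit shares both DMSO arrays with that at 24 h. The 6 h C646 array read above both DMSO arrays for 16 genes (59.3%, against 39.7% of all probe sets) and below both for 6 (38.7%). A limma model of treatment and time over all 4 arrays, which takes its error from how far the effects at 6 h and 24 h differ, also called 0 of the 27 and 0 overall. There, no gene of the 27 passed an unadjusted limma p of 0.05, which 6.13% of all probe sets did upward and 4.90% downward.

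**Figure D2:**
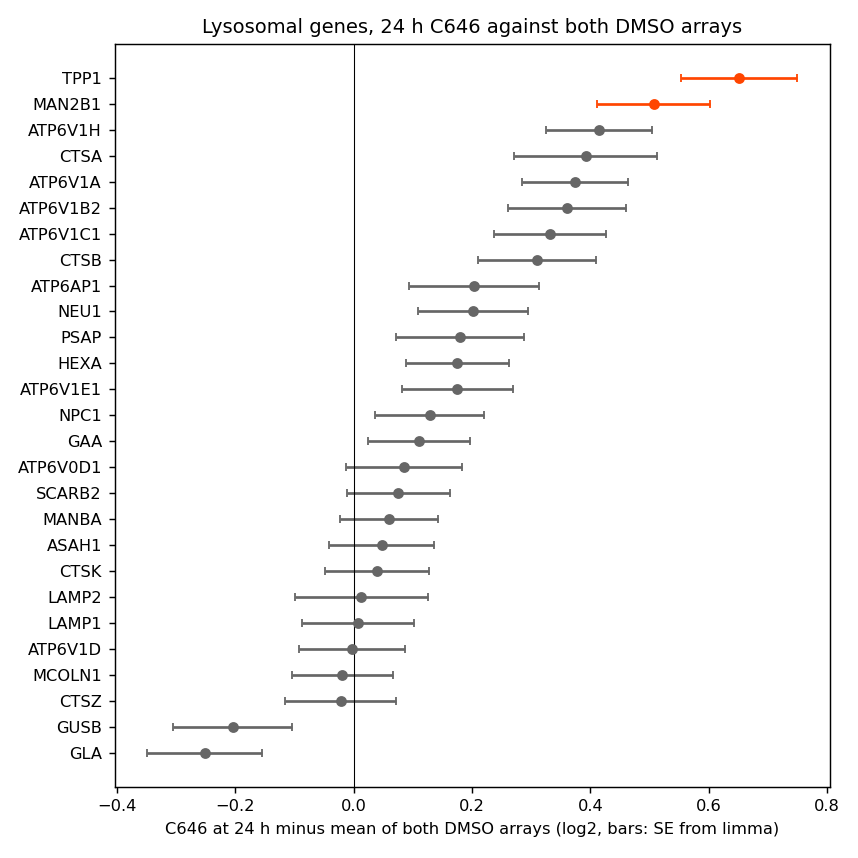
Estimate of C646 at 24 h minus the mean of both DMSO arrays (log2, x axis) for the 27 genes with a probe set of their own, with bars of 1 standard error from limma; genes with an adjusted p under 0.05 are orange. TPP1 at 0.65 and MAN2B1 at 0.51 stand at the top, and GLA at -0.25 and GUSB at -0.20 at the bottom.

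Among the proteases, TPP1 stood out at 24 h. TPP1 encodes tripeptidyl peptidase 1, which trims tripeptides from the ends of proteins, and its loss causes a neuronal storage disease. TPP1 (probe set 3361041) read 8.71 and 8.73 with DMSO at 6 h and 24 h, 8.82 with C646 at 6 h and 9.37 with C646 at 24 h. Only the last array was clearly high, since the 6 h C646 array exceeded its vehicle array by 0.11. Against both DMSO arrays TPP1 rose by 0.65 ± 0.098 (SE) at 24 h, with a limma adjusted p of 0.025, which ranged from 0.012 to 0.0497 over the alternative settings. Its difference from the DMSO array of the same time was 0.64, or 1.56-fold, and 4.04% of all probe sets lay at least as high. The promoter stretch of TPP1 above holds TCATGTG once on each strand and no CACGTG.

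The other proteases ran from near 0 upward at 24 h. CTSA encodes cathepsin A, a carboxypeptidase that also shields β-galactosidase and neuraminidase from breakdown. CTSA read 8.44 and 8.26 with DMSO at 6 h and 24 h, 8.57 with C646 at 6 h and 8.74 with C646 at 24 h. Both C646 arrays lay above both vehicle arrays, which themselves differed by 0.18, and the limma adjusted p was 0.11 at 24 h. CTSB, a cysteine protease, read 7.31 and 7.21 with DMSO, 7.28 with C646 at 6 h and 7.57 at 24 h. Its difference went from -0.028 at 6 h to 0.36 at 24 h, with a limma adjusted p of 0.12 at 24 h. CTSK, a collagen-cleaving protease, had differences of -0.27 at 6 h, the lowest of the 27 genes, and 0.043 at 24 h. CTSZ, a carboxypeptidase, lay close to DMSO at both times, at 0.0092 and -0.0049.

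The probe set shared by CTSD and IFITM10 had a larger difference at 24 h than any of the 27 genes. CTSD encodes cathepsin D, the main aspartic protease of the lysosome. The shared probe set (3358950) read 7.82 and 7.67 with DMSO at 6 h and 24 h, 8.25 with C646 at 6 h and 8.43 with C646 at 24 h. Both C646 arrays lay above both DMSO arrays, by 0.43 and 0.76 against the DMSO array of the same time. Against both DMSO arrays the shared probe set rose by 0.69 ± 0.11 (SE) at 24 h, with a limma adjusted p of 0.029. The signals of both genes cannot be told apart here.

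**Figure D3:**
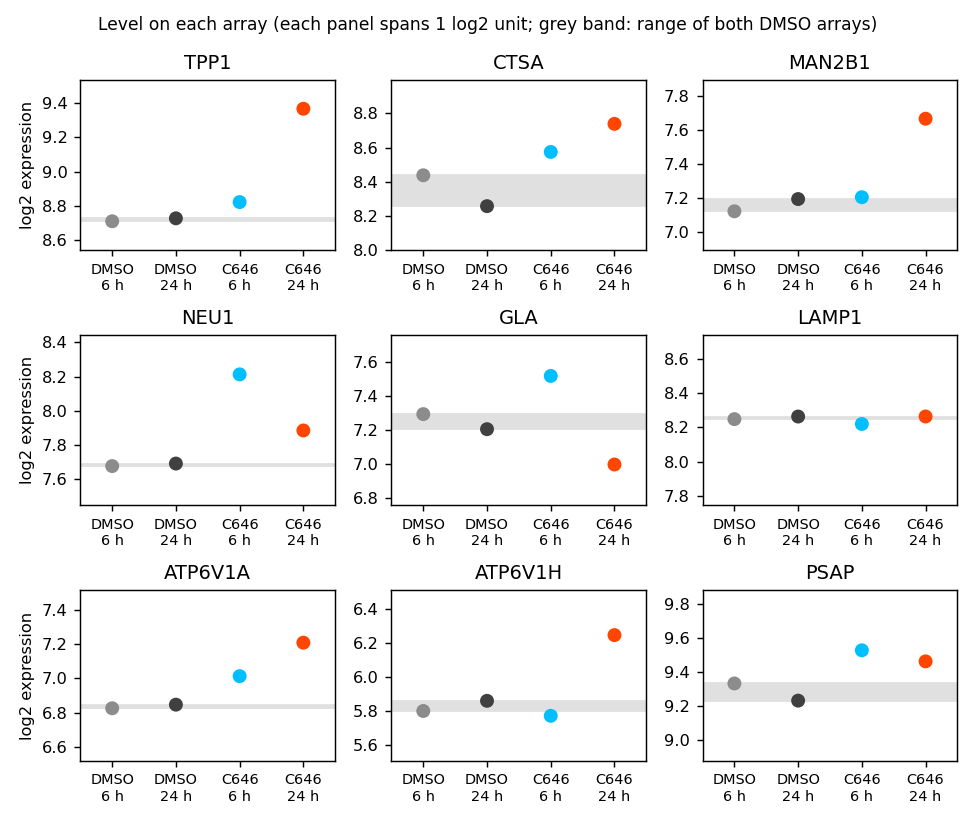
Level on each of the 4 arrays (log2 expression, y axis) for 9 genes with a probe set of their own; each panel spans 1 log2 unit, and the grey band is the range of both DMSO arrays. TPP1, MAN2B1 and ATP6V1H are high on the 24 h C646 array only, NEU1 is highest on the 6 h C646 array, GLA lies above the band at 6 h and below it at 24 h, and LAMP1 stays between 8.22 and 8.26.

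The glycosidases went in different directions. MAN2B1 encodes the lysosomal α-mannosidase that takes mannose from glycans. MAN2B1 (probe set 3851545) read 7.12 and 7.19 with DMSO at 6 h and 24 h, 7.20 with C646 at 6 h and 7.66 with C646 at 24 h. The 24 h C646 array alone stood apart. Against both DMSO arrays it rose by 0.51 ± 0.096 (SE), with a limma adjusted p of 0.040. This call ended with quantile normalization (adjusted p = 0.058) and without the filter on dim probe sets (0.074).

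NEU1 and GLA were highest with C646 at 6 h. NEU1 encodes the sialidase neuraminidase 1, and its probe set read 7.68 and 7.69 with DMSO at 6 h and 24 h, 8.21 with C646 at 6 h and 7.88 with C646 at 24 h. Both C646 arrays were above both vehicle arrays, with the larger difference, 0.54, at 6 h. Its limma adjusted p was 0.20 at 6 h and 0.22 at 24 h. GLA, the α-galactosidase that is deficient in Fabry disease, read 7.29 and 7.20 with DMSO at 6 h and 24 h, 7.52 with C646 at 6 h and 7.00 with C646 at 24 h. The C646 arrays thus lay on opposite sides of the vehicle range, at 0.22 and -0.21, and neither passed (limma adjusted p of 0.31 and 0.16).

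The remaining glycosidases differed by less than 0.2 at both times. HEXA, which encodes the α subunit of β-hexosaminidase A, was at 0.0052 and 0.18 at 6 h and 24 h. With all probe sets of a gene averaged its 24 h value was 0.030, since a second, dimmer HEXA probe set below the filter was at -0.12. GAA, the α-glucosidase that digests glycogen, was at 0.11 and 0.085, and its promoter stretch holds the longer palindrome at 2 places. MANBA, a β-mannosidase and the dimmest of the probe sets by its mean, was at 0.17 and 0.030. GUSB, the β-glucuronidase, was at -0.023 and -0.14, after a vehicle difference of -0.13 between the times.

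GLB1 could be followed only through a probe set (2668205) shared with TMPPE. It read 6.25 and 6.35 with DMSO at 6 h and 24 h, 6.36 with C646 at 6 h and 6.50 with C646 at 24 h. The 24 h C646 array was the highest, but vehicle cells had also moved by 0.10 between the times. C646 differed from DMSO by 0.11 at 6 h and 0.15 at 24 h, and the limma adjusted p against both DMSO arrays was 0.24 at 24 h. By the distance over the 3 differences from the DMSO array of 6 h, the nearest of 10707 named genes were ZBED3, NIPAL2, SH3GLB2, HS1BP3 and MADD, at distances of 0.020 to 0.029. Of other genes linked to senescence, CDKN1A, the cell cycle inhibitor p21, read 5.43 and 5.63 with DMSO at 6 h and 24 h, 5.27 with C646 at 6 h and 6.48 with C646 at 24 h (limma adjusted p = 0.018 against both DMSO arrays at 24 h). The chromatin protein gene HMGB2 fell by 2.40 at 24 h against DMSO of the same time, and against both DMSO arrays its limma adjusted p was 0.0029. Its relative HMGB1 was at -0.53 (adjusted p = 0.039), from a probe set numbered among those of another chromosome. Of the 6 measured genes of the senescence list, 2 rose and 2 fell in the limma fit at 24 h, where 6.68% and 6.90% of all probe sets did. The genes that rose were CDKN1A and FUCA1, a lysosomal hydrolase also counted among the other hydrolase genes below. IGFBP3 and CXCL8, picked with their values known, were not called. Against DMSO of the same time IGFBP3 was at 0.27 at 6 h and -0.063 at 24 h, and CXCL8 at -0.47 and 0.13.

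**Figure D4:**
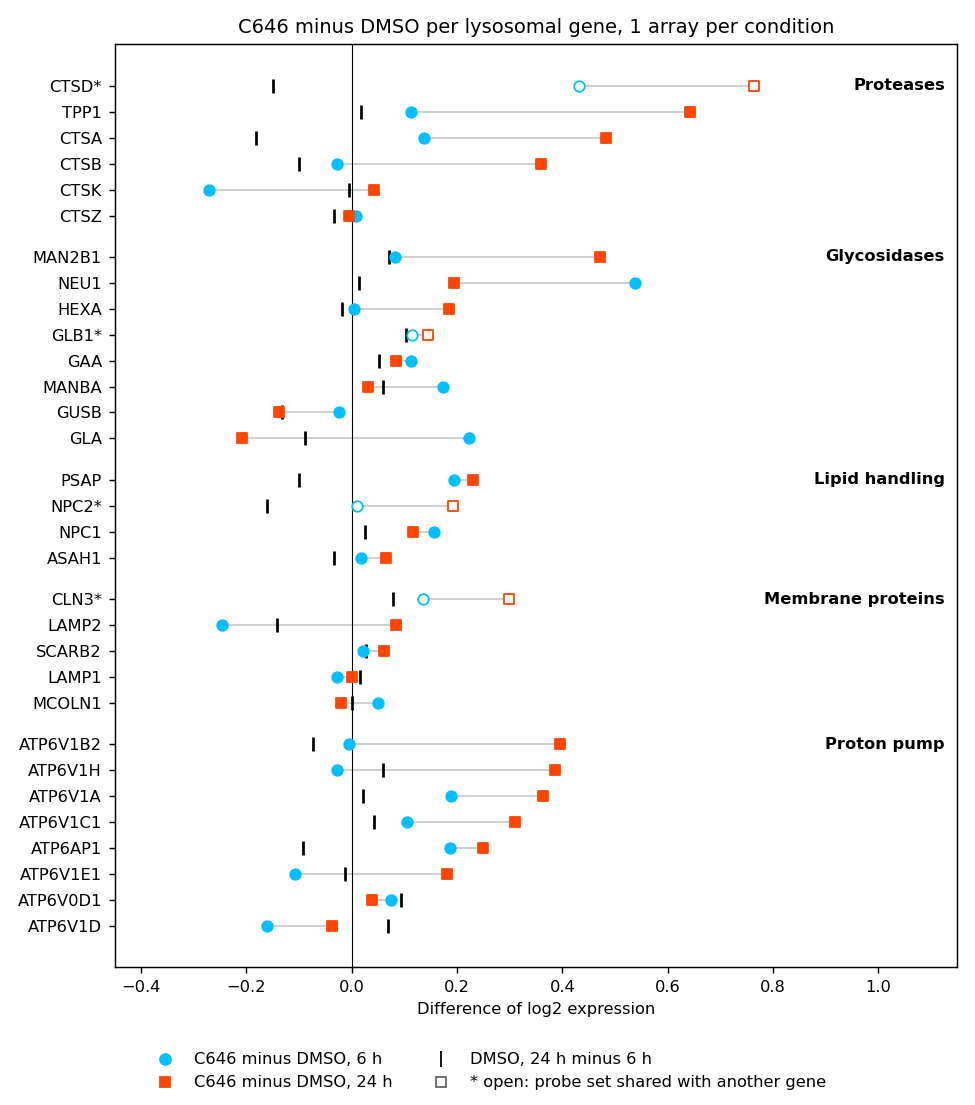
Difference of C646 minus DMSO (log2, x axis) at 6 h (circles) and 24 h (squares) for each of the 31 genes, grouped by role, with the vehicle difference DMSO 24 h minus 6 h as a black tick; open symbols with an asterisk are probe sets shared with another gene. Pump subunits such as ATP6V1B2 at 0.40 and ATP6V1H at 0.39 lie to the right at 24 h, while the membrane proteins with a probe set of their own stay between -0.020 and 0.084 at that time.

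Genes of lipid handling read above DMSO at both times, by as little as 0.0096 at 6 h. Of all probe sets, 49.4% lay above 0 at 6 h and 55.0% at 24 h. PSAP, the precursor of the saposins that present sphingolipids to hydrolases, read 9.33 and 9.23 with DMSO at 6 h and 24 h, 9.53 with C646 at 6 h and 9.46 with C646 at 24 h. Both C646 arrays lay above both vehicle arrays, by 0.19 and 0.23 at matched times, with limma adjusted p-values of 0.37 and 0.32. NPC1, the membrane protein that exports cholesterol from the lysosome, was at 0.16 and 0.12. ASAH1, the acid ceramidase, was at 0.018 and 0.065. The probe set shared by NPC2, the soluble partner of NPC1, and SYNDIG1L was at 0.0096 and 0.19, after a vehicle difference of -0.16.

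The structural membrane proteins stayed near DMSO at 24 h. LAMP1, a heavily glycosylated protein that lines the lysosomal membrane, read 8.25 and 8.26 with DMSO at 6 h and 24 h, 8.22 with C646 at 6 h and 8.26 with C646 at 24 h. The 4 arrays thus lay close together, and its promoter stretch holds CACGTG at 5 places. LAMP2, its close relative, was at -0.25 at 6 h and 0.084 at 24 h, after a vehicle difference of -0.14. SCARB2, which carries β-glucocerebrosidase to the lysosome, was at 0.022 and 0.062. MCOLN1, a calcium channel of the lysosome, was at 0.050 and -0.020, and its stretch holds CACGTG at 2 places. CLN3, a membrane protein mutated in juvenile Batten disease, was represented by a probe set shared with 4 genes or pseudogenes of the NPIPB family, which was at 0.14 and 0.30.

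Proton pump subunits lay above DMSO at 24 h in 7 of 8 cases, where 55.0% of all probe sets did, with a median of 0.28 after 0.035 at 6 h. None passed the limma test at 24 h, where 6.68% of all probe sets rose and 6.90% fell. ATP6V1A and ATP6V1B2 encode the A and B subunits of the ring that hydrolyses ATP. ATP6V1A read 6.82 and 6.85 with DMSO at 6 h and 24 h, 7.01 with C646 at 6 h and 7.21 with C646 at 24 h. Both C646 arrays were above the vehicle arrays, which differed by 0.021, and the limma adjusted p at 24 h was 0.066. It passed only in the run with all probe sets of each gene averaged (0.046). There its own estimate stayed at 0.37, and 14619 features were tested in place of 16579. ATP6V1B2 read 8.31 and 8.23 with DMSO, 8.30 with C646 at 6 h and 8.63 at 24 h, with a limma adjusted p of 0.088 at 24 h.

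The stalk subunits of V1 did not move together. ATP6V1H, a regulatory subunit, read 5.80 and 5.86 with DMSO at 6 h and 24 h, 5.77 with C646 at 6 h and 6.25 with C646 at 24 h. The 24 h C646 array alone was high, by 0.39 at the matched time, with a limma adjusted p of 0.053. It passed with a stricter filter, at the 60th percentile (0.043), and with all probe sets of a gene averaged (0.035). In both runs its own estimate stayed at 0.42, and fewer features were tested. ATP6V1C1, which joins V1 to V0, was at 0.11 and 0.31 (adjusted p = 0.093 at 24 h). ATP6V1E1, of the outer stalk, was at -0.11 and 0.18. ATP6V1D, of the central rotor, was at -0.16 and -0.037 and was the 1 pump subunit below 0 at 24 h. ATP6V0D1, which couples the rotor to V0, was at 0.075 and 0.038. ATP6AP1, an accessory protein needed for pump assembly, was at 0.19 and 0.25, both above both vehicle arrays.

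The differences were then set beside the promoter sequences. Among the 16 genes with both a promoter window and a probe set of their own, the 6 with CACGTG had a median difference of 0.062 at 24 h, ranging from -0.020 for MCOLN1 to 0.48 for CTSA. The 10 without it had a median of 0.089, ranging from -0.21 for GLA to 0.64 for TPP1. At 6 h the order was the other way, with medians of 0.094 with CACGTG and 0.052 without. The genes with only shared probe sets are left out of these medians. Of those, CTSD and CLN3 carry CACGTG and were at 0.76 and 0.30 at 24 h, while GLB1 and NPC2 do not and were at 0.15 and 0.19. The 3 genes with TCATGTG were TPP1 at 0.64, CTSA at 0.48 and SCARB2 at 0.062. Their median was 0.48, against 0.038 for the 13 genes without it, which ranged from -0.21 for GLA to 0.47 for MAN2B1. These medians describe few genes, the window of SCARB2 lay on another start than that of the gene table, and no test was made.

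The wider set of lysosomal genes also lay mostly above DMSO. Of 31 other hydrolase genes, 26 lay above 0 at 24 h (55.0% of all probe sets) and 28 at 6 h (49.4%), with medians of 0.17 and 0.097. In the limma fit at 24 h, 5 of them rose and none fell, where 6.68% and 6.90% of all probe sets did: FUCA1 (adjusted p = 0.026), DNASE2 (0.028), ARSA (0.022), SGSH (0.025) and SIAE (0.048). ARSA, SGSH and SIAE fall outside the naming rule and were picked with their values known. FUCA1, the lysosomal fucosidase, read 6.95 and 6.99 with DMSO at 6 h and 24 h, 7.44 with C646 at 6 h and 7.57 with C646 at 24 h, so both C646 arrays were high. The lowest by the mean of both times were the sulfatase gene ARSB, at -0.20 after 24 h, and the protease gene CTSC, at -0.27.

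Other membrane proteins ranged from LAPTM4B to MCOLN3 at 24 h. Of 25 measured, 19 were above 0 at each time (49.4% of all probe sets at 6 h, 55.0% at 24 h), with medians of 0.16 and 0.12. In the limma fit at 24 h 2 rose, a share near the 6.68% of all probe sets. MCOLN3, a relative of MCOLN1, read 7.49 and 7.29 with DMSO at 6 h and 24 h, 7.96 with C646 at 6 h and 8.31 with C646 at 24 h (limma adjusted p = 0.020). SIDT2, picked with its values known, was the other (0.021). LAPTM5 was at 0.79 at 6 h and 0.43 at 24 h. LAPTM4B was at -1.0 at 24 h from a probe set numbered among those of another chromosome. Vehicle cells had moved by 0.62 there between the times, and the limma adjusted p was 0.17.

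No other pump subunit passed the limma test at 24 h, where 6.68% of all probe sets rose and 6.90% fell. Of 7 measured, 6 were above 0 at 24 h, against 55.0% of all probe sets, with a median of 0.12, from ATP6V1G1 at 0.45 to TCIRG1 at -0.025. Of 18 genes that sort proteins to the lysosome, 12 were above 0 at 24 h (55.0% of all probe sets) with a median of 0.16, and none was called (6.68% of all rose and 6.90% fell). By the mean of both times VPS11, at 0.45 after 24 h, and AP1S1, at 0.26, were the highest, and AP1G1 at -0.050 and VPS18 at -0.062 the lowest. Of 16 autophagy genes, 12 were above 0 at 24 h (55.0% of all probe sets) with a median of 0.12. In the limma fit at 24 h 2 rose (6.68% of all), OPTN (adjusted p = 0.042) and MAP1LC3A (0.0499), both picked with their values known. GABARAPL2 at 0.37 and ATG12 at 0.41 had the highest mean over both times, and RB1CC1 at 0.13 and UVRAG at -0.12 the lowest.

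**Figure D5:**
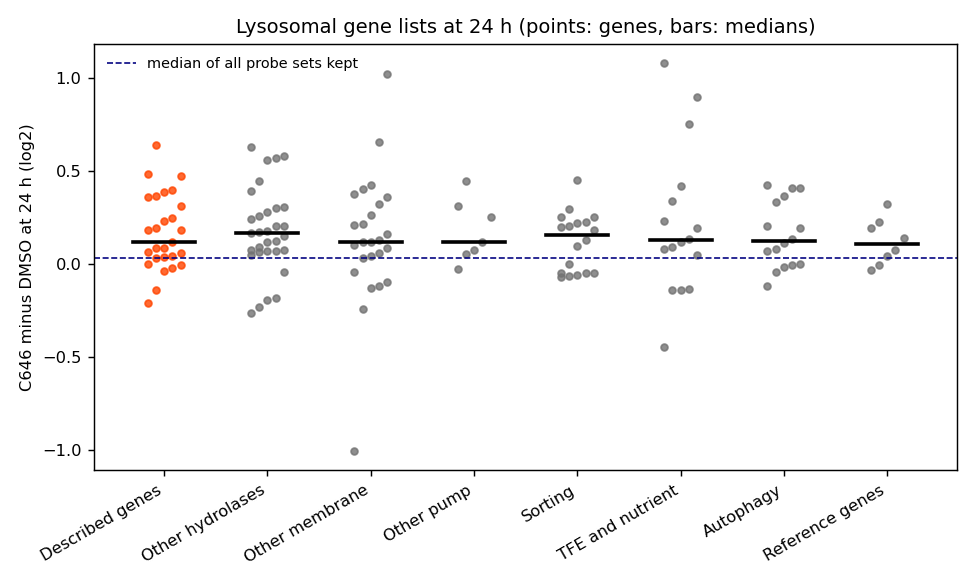
C646 minus DMSO at 24 h (log2, y axis) for the 27 described genes (orange), the other lysosomal lists and 8 reference genes (grey); each point is a gene, each bar the list's median, and the dashed line the median of all 16579 probe sets kept, 0.030. The medians of the lists lie between 0.11 for the reference genes and 0.17 for the other hydrolases.

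Transcripts of the regulators themselves differed in size. TFEB read 4.29 and 4.35 with DMSO at 6 h and 24 h, 4.36 with C646 at 6 h and 4.40 with C646 at 24 h, so its arrays lay close together. TFE3 was at -0.11 at 6 h and 0.080 at 24 h. MITF read 6.81 and 6.47 with DMSO at 6 h and 24 h, 7.60 with C646 at 6 h and 7.37 with C646 at 24 h. Both C646 arrays lay above both vehicle arrays, which differed by -0.34, and the limma adjusted p was 0.059 at 24 h. Of the 16 regulators and nutrient sensors, 2 rose and 1 fell in the limma fit at 24 h, where 6.68% and 6.90% of all probe sets did. PPARGC1A, a coactivator of mitochondrial genes, rose by 1.10 ± 0.084 (SE; adjusted p = 0.0060), RRAGB, a GTPase that signals nutrients to mTORC1, rose too (0.021; picked with its values known), and FNIP2 fell by 0.45 (0.039). RHEB, at -0.45 at 6 h, came from a probe set numbered among those of another chromosome.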

How the data were processed

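The authors' deposited table holds log2 expression values of 4 arrays; the scale was read from the values, and how probes were summarised and normalized was not given in the sources used here. Per the submitters' processing notes the build was hg19. Symbols came from the platform annotation, with 20429 probe sets carrying 1 symbol, 4232 several and 2970 none. They were updated by Entrez identifier (20362 matched). For each gene the probe set with the highest mean stood for it. Differences were taken array against array, with no p-value. limma 3.58.1 in R 4.3.3 (eBayes with a trend on the mean level; Benjamini-Hochberg over all 16579 probe sets kept) gave the adjusted p-values, each with 1 residual degree of freedom. In the fits at 24 h and at 6 h the p-value rests on the spread between 2 vehicle arrays, which eBayes draws towards that of other probe sets. At 24 h MCOLN1, with a vehicle difference of 0.00073, had an SE of 0.086, and CTSA, with -0.18, one of 0.12. In the model over both times the p-value rests on the disagreement of the 6 h and 24 h effects. Neither is a spread between cultures of 1 condition. The limma fits at 24 h, at 6 h and over both times were run on simulated data with 200 planted effects of 0.5. They recovered 81.5%, 87.5% and 100% of these, with 3, 5 and 8 false calls. The simulation planted the same effect at 6 h and 24 h and gave all probe sets the same normal error. Effects that differ between the times, such as 0.11 and 0.64 for TPP1, widen the error of the model over both times and were not simulated. On the arrays themselves the fits at 6 h and over both times called 0 probe sets. How far the simulated rates carry over to these arrays was not tested. For arrays, their number limits the precision, and no detection call was used. A probe set counted as numbered among another chromosome when its own chromosome was not the commonest among the 50 named probe sets on either side of it in number.

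The naming rule covered all 31 members, the 2 highest and 2 lowest of each list by mean effect, any gene of a list at 2-fold, the 5 genes nearest to GLB1, and TFEB, TFE3, MITF and CDKN1A. Picked by it but not described above were SLC36A1 (-0.24 at 24 h), ATP6V0A1 (0.31) and ATP6AP2 (0.12). Of the marker and reference genes it picked, only MITF, TYROBP and GAPDH were named above. The melanocyte marker S100B, at 1.49 after 24 h, was past 2-fold. LMNB1 was in the rule but had only shared probe sets. The members and lists were chosen with earlier results of these data known. The lists of fibroblast and keratinocyte markers had 2 and 1 genes above the filter, with medians of -0.11 and 0.16 at 24 h. Alternatives covered the scaling, the filter, the probe set per gene, the vehicle arrays, the trend and leaving out each array. Promoter windows came from RefSeq on GRCh38.p14, and no hg19 coordinates were used.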

Additional observations from a re-analysis of the deposited data

Results flagged for a closer look

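For 10 of the 27 genes the C646 difference had opposite signs at 6 h and 24 h. Over all probe sets kept, 64.5% had the same sign at both times, and 63.0% of these genes did. With 1 array per condition the change between the times was not tested. The 24 h effect minus the 6 h effect was 0.029 for LAMP1, 0.33 for LAMP2, 0.39 for CTSB, 0.31 for CTSK, -0.014 for CTSZ, -0.43 for GLA and -0.070 for MCOLN1. Among pump subunits it was 0.40 for ATP6V1B2, 0.29 for ATP6V1E1 and 0.41 for ATP6V1H.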

How the results depend on the processing

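The upward medians at 6 h and 24 h kept their sign under every alternative run. The count of genes that rose at 24 h in limma, 2, was 1 with quantile normalization, 1 without the filter and 4 with all probe sets of a gene averaged, where fewer features were tested. The share of all features called in each of these runs is not given here, so these counts have no background beside them. With the shared probe sets counted, chosen after seeing the data, the 24 h median was 0.18. Of the 31 genes 2 were then 1.5-fold higher, where 4.96% of all probe sets were. At 1.25-fold, also chosen afterwards, the counts were 1 at 6 h and 7 at 24 h. The vehicle median turned to -0.0076 with arrays centred and -0.0023 with a stricter filter (60th percentile). With each array left out in turn, too few arrays remained to fit time as well, so treatment alone was fitted. These fits called 0 to 2 genes, with 2 without the 6 h C646 array and 0 without any other array. The fit without the 6 h C646 array uses the same arrays as the fit at 24 h, so it is not a separate result. For the fits with an array left out, too, the share of all probe sets called is not given here. Against both DMSO arrays at 24 h, LAMP1 turned to -0.0097 with arrays centred, LAMP2 to -0.00079 with quantile normalization and -0.0043 with arrays centred, and ATP6V1D to 0.015 with quantile normalization. The cause of these turns was not tested. Dim probe sets such as that of MANBA limit what can be seen.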

Other observations

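Further probe sets carry the symbols of some of these genes. The probe set shared by NEURL2 and CTSA was at 0.37 at 6 h and 0.91 at 24 h, while that shared by PLTP and CTSA was at -0.13 and 0.058. A second GUSB probe set was at 0.057 and -0.043, against -0.023 and -0.14 for the brighter one. The probe set shared by RMC1 and NPC1 was at 0.13 and 0.068. Among 3 more probe sets shared by CLN3 with NPIPB genes, 24 h differences were 0.49, -0.022 and -0.086, and the last of these, the one that drifted most in vehicle cells, by 0.65 between 6 h and 24 h, was at 0.22 after 6 h.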
